A study of Mus musculus with 2 samples.

Results

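Cycling CD8 T cells were the 146 of 13620 filtered cells (1.07%) that carried transcripts of the cell division programme. They were chosen on measured values: a barcode needed at least 500 detected genes, at most 10% of its UMIs in mitochondrial genes, and at least 1 UMI of at least 3 of 9 rule genes. The rule genes were Mki67, Top2a, Birc5, Cdk1, Ccnb2, Cenpf, Ube2c, Rrm2 and Pclaf, so their levels describe the choice and support nothing. Of 5619 old recipient cells 54 were cycling, and of 8001 young donor cells 92 were.

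The study placed total splenic CD8 T cells of wild-type CD45.1 C57BL/6J donors aged 3 months into wild-type CD45.2 C57BL/6J recipients aged 24 months. At 1 month after transfer, in hosts aged 25 months, CD3e+CD8a+ cells were sorted from spleen as CD45.2+ (old recipient, the host's own cells) or CD45.1+ (young donor). Both populations had therefore spent that month in aged hosts, not stated to be the same animals. Each gave 1 droplet 5′ gene expression library, with no replicate, and the labels do not say whether a library came from 1 mouse or from a pool. Library and group cannot be told apart, so no difference was tested, and every 95% interval below covers counting error only.

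A T cell that enters the cycle copies its DNA in S phase, which needs nucleotides, replication factors and new histones, and then condenses and separates its chromosomes in G2 and mitosis. Resting CD8 T cells in the spleen are mostly outside the cycle. Naive cells home through Ccr7, memory cells carry Ccl5 and often Ly6c2, and in aged mice a Gzmk-expressing population with Eomes, Tox, Tigit and Pdcd1 accumulates.

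Promoters of genes that peak in mitosis often hold CCAAT boxes and the cell cycle homology region (CHR, TTTGAA), and promoters of S-phase genes often hold E2F-like letters (TTTNNCGC). The 5 stretches below were picked because they carry these letters: Ccnb2 and Top2a of mitosis, Cdk1 of both, and Mcm6 and Pclaf of replication. All but Mcm6 are rule genes, high by the choice of cells, so their levels support no link to the letters. Over the same span the rule gene Birc5 and the S-phase gene Tyms held none of these letters. Each stretch runs 5′ to 3′ from 150 bases before to 20 bases after the annotated start (RefSeq, GRCm38.p6). Capitals mark the CHR, CCAAT and E2F-like letters on either strand.
Ccnb2, chr9:70421535-70421704, minus strand: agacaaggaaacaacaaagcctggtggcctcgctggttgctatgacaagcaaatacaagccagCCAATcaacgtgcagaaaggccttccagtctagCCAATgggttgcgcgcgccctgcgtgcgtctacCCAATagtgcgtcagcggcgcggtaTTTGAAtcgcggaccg
Top2a, chr11:99024170-99024339, minus strand: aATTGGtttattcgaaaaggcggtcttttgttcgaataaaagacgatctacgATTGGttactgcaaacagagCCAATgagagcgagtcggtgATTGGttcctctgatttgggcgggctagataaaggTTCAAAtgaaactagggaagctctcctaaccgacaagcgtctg
Cdk1, chr10:69352893-69353062, minus strand: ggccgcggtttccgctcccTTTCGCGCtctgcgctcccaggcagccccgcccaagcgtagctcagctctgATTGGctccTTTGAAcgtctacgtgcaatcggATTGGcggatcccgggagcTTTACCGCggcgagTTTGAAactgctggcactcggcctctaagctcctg
Mcm6, chr1:128359686-128359855, minus strand: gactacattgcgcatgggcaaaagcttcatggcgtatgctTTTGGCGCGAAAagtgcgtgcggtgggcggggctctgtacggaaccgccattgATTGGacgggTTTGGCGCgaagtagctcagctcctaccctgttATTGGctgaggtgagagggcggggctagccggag
Pclaf, chr9:65890173-65890342, plus strand: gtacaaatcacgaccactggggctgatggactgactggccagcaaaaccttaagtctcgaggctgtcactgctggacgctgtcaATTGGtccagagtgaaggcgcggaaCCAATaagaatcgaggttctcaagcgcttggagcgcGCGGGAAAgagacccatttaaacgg

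Over the 300 bases that RefSeq gives per promoter, from 250 before to 50 after the start, the CHR letters stood in 28 of the 38 G2/M and mitosis genes with an entry (73.7%). They stood in 5 of 29 S-phase genes (17.2%) and in 18.1% of 27025 mouse promoters. The E2F-like letters stood in 12 of 29 S-phase promoters (41.4%), in 2 of 38 G2/M promoters (5.26%) and in 5.27% of all. In Mcm6, 2 matches of these letters on opposite strands overlap in a single run of capitals. CCAAT stood in 29 of 38 G2/M promoters (76.3%), in 18 of 29 S-phase promoters (62.1%) and in 37.9% of all. Among the lineage genes, Gzmk held 1 CHR match and no CCAAT, and Igfbp4 and Ly6c2 held none of the 3 motifs. A match is a run of letters, not a shown binding site.

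Cycling cells made up 0.961% of old recipient cells (exact binomial interval 0.723 to 1.25) and 1.15% of young donor cells (0.928 to 1.41). The log2 ratio of recipient over donor shares was -0.26 (-0.77 to 0.24), an interval that includes equal shares. Cycling cells were deeper than the other cells, at medians of 13587 UMIs against 7017 for the recipient and 13965 against 7897 for the donor; the part of depth in who met the rule was checked by thinning. With every cell thinned to 3500 UMIs and shallower cells left out, 39 of 5119 recipient cells (0.762%) and 69 of 7538 donor cells (0.915%) met it. Of the 54 recipient members 52 lay above the median depth of the other cells, and of the 92 donor members 85 did.

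The number of rule genes per cell ran without a gap from 0 to 9. In the recipient, 17 cells carried all 9 rule genes, 5 carried exactly 3 and 28 carried exactly 2. In the donor, 19 carried all 9, 7 carried 3 and 42 carried 2. Rule genes took a median 0.0364% of UMIs in the 5 recipient cells just inside and 0.0366% in the 28 just outside. In the donor these medians were 0.0504% inside and 0.0278% outside. Over all members the medians were 0.312% and 0.2501%, and the median cell just inside the rule lay below these in both libraries.

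Birc5 (survivin, of the chromosomal passenger complex; chromosome 11, 117849251 to 117855743) had 566 UMIs per 1000000 (CPM) in recipient and 528 in donor cycling cells, against 0.225 in other recipient cells. Pclaf, a PCNA-binding replication factor, had 763 and 531 CPM. Rrm2, the small subunit of ribonucleotide reductase, had 498 and 314 CPM. Top2a, which untangles replicated DNA, had 469 and 450 CPM, and the proliferation antigen Mki67 had 281 and 262. Ube2c, Ccnb2, Cdk1 and Cenpf, which act at entry to or exit from mitosis, had 415 and 447, 285 and 328, 170 and 137, and 137 and 182 CPM. In the other cells of both libraries every rule gene was at or below 5.85 CPM, the value of Top2a in the recipient.

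Cycling cells carried the T cell genes that the sort implies. The 12 T cell identity genes summed to 7452 CPM in recipient and 7275 CPM in donor members, against 7534 and 6892 in other cells, and none passed a 2-fold change in both libraries. Cd8b1 had 1197 and 1496 CPM and Cd3e 958 and 817 CPM in members, and 1 donor member had no UMI of the 12 genes. Cd4 was at 0 UMIs in all members, as were Ms4a1, Lyz2, Csf1r, Itgam, the 4 dendritic genes and the 3 platelet genes. The 6 B cell genes summed to 144 and 196 CPM in members and 182 and 161 in other cells, mostly Ighm and Cd79b. The 8 myeloid genes, mostly Cst3, summed to 152 and 138 CPM in members and 106 and 100 in other cells. The 4 NK genes gave 20 UMIs in recipient members, 19 of them in 1 cell, and 2 in the donor. The 3 regulatory T cell genes, with Foxp3 at 0 in members, summed to 35.4 CPM in recipient members against 21.2 in other cells, and to 0.738 against 4.59 in the donor.

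Doublets were scored, not removed, in the main values. None of 54 recipient and 1 of 92 donor members lay among the highest doublet scores, against 4.996% and 6.94% of other cells. Still, 2 different Trbv segments with at least 3 UMIs each were seen in 24.1% of recipient and 19.6% of donor members and in 13.8% and 11.1% of the shallower other cells. The libraries shared 105 barcodes, of which 3 belonged to recipient and 1 to donor members.

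Genes were then compared between cycling and other cells of the same library, by UMIs summed over cells and scaled to CPM, with ratios as log2 of cycling over other cells. Of 4848 measured genes (mean of at least 20 CPM over the 4 sums, without the rule genes), 379 (7.82%) were at least 2-fold higher in cycling cells of both libraries and 20 (0.413%) at least 2-fold lower. The rule chose on genes that move with these, so the counts are a description. A gene could also count as measured through the cycling sums alone, and such a gene had to be higher there. All measured genes had a median log2 ratio of 0.21 in the recipient and 0.17 in the donor. Ribosomal protein genes took 27.8% and 31.1% of UMIs in members against 40.5% and 41.5% in other cells. With totals taken by edgeR's TMM those medians were -0.03 and -0.02, the lower count rose from 20 to 40, and list medians below stand beside 0.21 and 0.17.

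**Figure D1:**
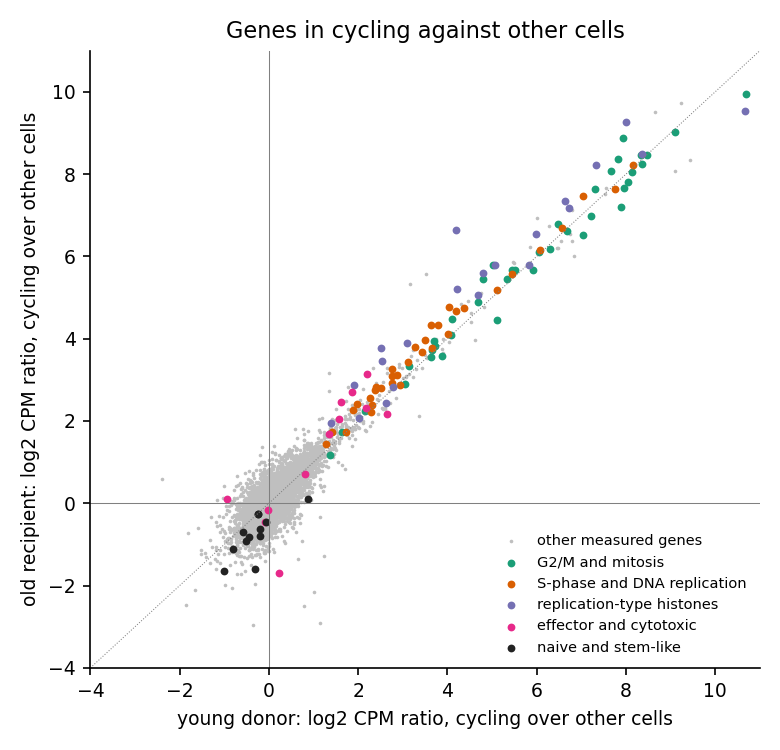
Log2 CPM ratio of cycling over other cells for each measured gene, in the young donor (horizontal axis) and the old recipient (vertical axis), with 5 gene lists in colour, the dotted line marking equal ratios and genes at 0 UMIs in a sum left out. G2/M, S-phase and histone genes lie above 1 on both axes, and most naive genes lie below 0 on both.

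All 34 measured S-phase genes were at least 2-fold higher in both libraries, with median log2 ratios of 3.55 in the recipient and 3.20 in the donor. Of these, 23 averaged under 20 CPM in other cells and so were measured through the cycling cells, and 2 of the 36 listed genes were not measured. Mcm6, a subunit of the replicative helicase (chromosome 1, 128331590 to 128359664), had 282 CPM in recipient members against 54.3 in other cells, and 227 against 46.0 in the donor. Pcna, the sliding clamp of DNA polymerase, had 330 against 47.1 and 280 against 48.7 CPM. Slbp, which binds the stem-loop of histone messages, had 358 against 60.9 and 272 against 56.9 CPM. In other cells these 3 genes stood at 46.0 to 60.9 CPM, above any rule gene.

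All 40 measured G2/M and mitosis genes were at least 2-fold higher in both libraries, with medians of 5.95 and 5.91. Of these, 35 were measured through the cycling cells, which fixes their direction, and 7 of the 47 listed genes were not measured. The other 5, Hmgb2 and Tubb4b among them, averaged at least 20 CPM in other cells, whereas Cenpa and Ccnb1 did not. Hmgb2, a chromatin protein, had 3088 CPM in recipient members against 180 in other cells, and 2844 against 168 in the donor, and was found in all 146 members. Cenpa, the centromeric histone, had 388 against 17.6 and 432 against 12.5 CPM. Tubb4b, a tubulin of the spindle, had 739 against 155 and 617 against 138 CPM. Ccnb1, a mitotic cyclin, had 78.4 against 0.850 and 96.7 against 0.730 CPM.

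The 12 genes with the highest ratios in both libraries held mitotic, repair and histone genes. Ccna2, the cyclin of S phase and G2, had 197 CPM in recipient and 184 in donor members, with log2 ratios of 9.95 (8.93 to 11.2) and 10.69 (9.63 to 12.02). Nusap1, a spindle protein, had ratios of 9.03 (8.24 to 9.94) and 9.10 (8.36 to 9.94). Esco2, which acetylates cohesin in S phase, had 97.4 and 73.8 CPM in members. Other donor cells had 0 UMIs of Esco2, so it was at least 1550-fold higher there at a limit of 3 counts, and other recipient cells had 3. Hmmr, a spindle protein, likewise had 84.8 and 95.2 CPM in members and was at least 1999-fold higher in the donor at the same limit. Kif15 and Ska1, both of the spindle, Neil3, a DNA glycosylase, Pimreg, Mxd3 and Pbk had 35.4 to 92.4 CPM in members and at most 0.159 CPM in other cells. Hist1h2af had no UMI in other recipient cells (at least 1922-fold) and Hist1h3b had 67.6% of its donor UMIs in 1 cell.

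Cyclins and their regulators did not move as a block. Of 10 measured, Ccnf, Cdk2, Cdc25b, E2f2 and Tfdp1 were at least 2-fold higher in both libraries and Ccnd2 at least 2-fold lower. Of these 10, 4 averaged under 20 CPM in other cells and so were measured through the cycling cells, which fixes their direction. Of the other 6, 1 was at least 2-fold higher, and 11 of the 21 listed genes were not measured. E2f2, an activating E2F factor, had 59.5 against 7.13 CPM in the recipient and 49.4 against 5.92 in the donor. Ccnd2, a D cyclin of the G1 phase (chromosome 6, 127125162 to 127152193), had 115 against 294 CPM in the recipient and 138 against 319 in the donor. Ccnd3, another D cyclin, had log2 ratios of 0.64 and 0.60. Myc, which drives growth after activation, had 39.2 against 89.5 and 64.9 against 104 CPM, past 2-fold in the recipient alone. Within the D cyclins, then, the ratios of Ccnd2 and Ccnd3 had opposite signs in both libraries.

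Of 16 measured inhibitors of cycling and quiescence genes, 2 were at least 2-fold higher in both libraries and 1 lower, with medians of -0.28 and -0.29. Of these 16, 2 (Cdkn2c and Rbl1) averaged under 20 CPM in other cells and so were measured through the cycling cells, which fixes their direction. Of the other 14, none was at least 2-fold higher, and 7 of the 23 listed genes were not measured. Cdkn2c, the inhibitor p18 of Cdk4 and Cdk6, had 81.0 against 11.7 CPM in the recipient and 42.8 against 9.86 in the donor. Rbl1 (p107) had 48.1 against 12.8 and 39.1 against 11.7 CPM. Btg1, an antiproliferative factor of resting lymphocytes (chromosome 10, 96617006 to 96622809), had 215 against 585 and 226 against 482 CPM. Cdkn1b (p27) had log2 ratios of -0.13 and -0.44, short of 2-fold.

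The other genes lowest in cycling cells also had 2-fold or larger ratios in both libraries. Tcp11l2 had the strongest, with 15.2 against 83.8 CPM in the recipient and 22.1 against 80.9 in the donor. Bcl2, which restrains apoptosis, had 106 against 280 and 148 against 331 CPM. Socs1, which dampens cytokine signalling, had 22.8 against 68.9 and 31.0 against 70.8 CPM. Hopx, Pbxip1, Phf1, Mettl1, Neu1, Qtrt1 and Klk8 completed the 12, at 9.59 to 125 CPM in members. Several of these rest on few UMIs in members, 8 for Phf1 in the recipient.

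Genes that serve growth had smaller ratios than those of division. Of 20 measured chromatin genes 18 were at least 2-fold higher in both libraries (medians 2.26 and 2.05), among them H2afz at 2959 against 554 and 2539 against 598 CPM. Of these 20, 3 were measured through the cycling cells, which fixes their direction, and 15 of the other 17 were higher. Stmn1, which destabilises microtubules, had 1028 against 13.8 and 830 against 14.5 CPM. Of 19 nucleotide synthesis genes 8 were at least 2-fold higher in both libraries (1.02 and 0.78). Here 4 were measured through the cycling cells, and 4 of the other 15 were higher. Tyms, which makes thymidylate, had 220 against 8.55 and 164 against 8.97 CPM, whereas Impdh2 of the purine route had a log2 ratio of 0.72 in both. Of 13 glycolysis genes 2 were, Gapdh and Tpi1 (0.66 and 0.54), and of 20 oxidative phosphorylation genes none was (0.64 and 0.58).

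The 4 lineage genes showed which CD8 states the cycling cells carried. Gzmk (granzyme K, chromosome 13, 113171608 to 113225908) is the mark of the age-associated population. After thinning to 3500 UMIs it was found in 21 of 54 recipient members (38.9%, 25.9 to 53.1) and in 20.04% of other recipient cells, a difference of 18.8 points (5.83 to 33.1). In the donor it was found in 16 of 90 members (17.8%, 10.5 to 27.3) and in 14.4% of other cells, a difference of 3.38 points (-3.92 to 12.9). Without thinning the shares were 42.6% against 24.5% and 19.6% against 19.1%. Cells that should lack Gzmk, those with Ccr7, Lef1 and 1 further naive gene and without Il2rb and Cxcr3, carried it in 1.12% and 0.680% at median depths of 7450 and 7771 UMIs, so these shares were above background. These naive-type cells also gave the background for Ly6c2 and Ccl5 below.

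Gzmk summed to 488 CPM in recipient members against 187 in other cells (log2 1.39, 1.24 to 1.53) and to 198 against 111 in the donor (0.84, 0.66 to 1.01). As the mean of each cell's own CPM, those ratios were 0.71 and 0.17. The 5 members with most Gzmk held 47.4% of its recipient and 55.6% of its donor member UMIs. Per carrier the median Gzmk level was 971 CPM in recipient members and 972 in other recipient carriers, and 751 against 775 in the donor. The other carriers were shallower, at median depths of 4639 against 14421 UMIs in the recipient and 4695 against 13876 in the donor. In a shallow cell 1 UMI is a larger CPM, so the close medians cannot be read as equal levels. By sums over carriers, Gzmk had 1125 CPM in cycling against 1007 in other recipient cells (log2 0.16, 0.0081 to 0.31). In the donor it had 1043 against 814 CPM (0.36, 0.18 to 0.53).

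Igfbp4, high in naive CD8 cells (chromosome 11, 99041244 to 99054392), went the other way. It was found after thinning in 10 of 54 recipient members (18.5%, 9.25 to 31.4) and 37.4% of other cells, a difference of -18.9 points (-28.2 to -5.90). In the donor it was found in 13 of 90 members (14.4%) and 19.3% of other cells, a difference of -4.85 points (-11.4 to 4.18). Without thinning the shares were 35.2% against 43.5% and 28.3% against 24.9%. Its background cells, other cells with at least 2 Gzmk UMIs, carried it in 6.69% and 2.72% at median depths of 4678 and 4694.5 UMIs. By sums Igfbp4 had 108 against 335 CPM in the recipient (log2 -1.64) and 66.4 against 133 in the donor (-1.002). Among the 12 measured naive and stem-like genes it alone passed 2-fold in both libraries on the CPM scale, and the list had medians of -0.75 and -0.28.

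Ly6c2, a Ly6C antigen of memory and interferon-exposed cells (chromosome 15, 75108158 to 75111970), has close paralogs, so its counts are uncertain. It was found in 48.1% of recipient members and 47.3% of other cells (difference 0.823 points, -13.1 to 14.9), and in 83.3% of donor members and 73.8% of other cells (9.49 points, 0.107 to 16.6). Unthinned shares were 55.6% against 51.4% and 88.0% against 74.5%. The naive-type cells carried it in 27.2% and 40.0%. Its level was 757 against 794 CPM in the recipient and 1633 against 1424 in the donor. The donor ratio of 0.20 turned to -0.03 when totals left out ribosomal, mitochondrial, receptor and cell cycle genes, so no direction is given for Ly6c2.

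Ccl5, a chemokine stored as message in memory cells (chromosome 11, 83525778 to 83530518), was carried more often by recipient members and less often by donor members than by other cells. Both difference intervals included 0. The share was 68.5% against 57.1% in the recipient (difference 11.4 points, -2.74 to 23.4) and 70.0% against 75.8% in the donor (-5.79 points, -16.4 to 3.47), with 20.1% and 17.0% in the naive-type cells. Unthinned shares were 81.5% against 67.6% and 79.3% against 80.5%. Its level was lower in members, at 5453 against 8005 CPM in the recipient (log2 -0.55) and 3542 against 7989 in the donor (-1.17). In the recipient this direction turned, to 0.15, when 2 rule genes sufficed for membership. Median levels in carriers were 5410 against 9644 CPM and 2824 against 8576 CPM.

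**Figure D2:**
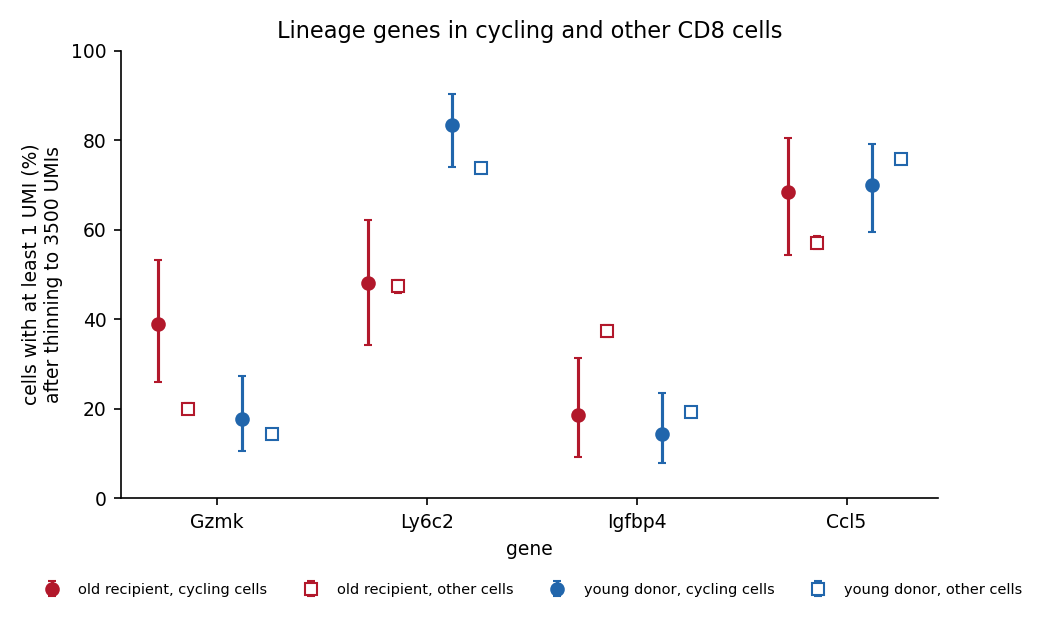
Percent of cells with at least 1 UMI of Gzmk, Ly6c2, Igfbp4 and Ccl5 after thinning to 3500 UMIs, for cycling (filled circles) and other cells (open squares) of the old recipient (red) and young donor (blue), with exact 95% binomial intervals, some smaller than the symbol. Recipient members stand apart from other recipient cells for Gzmk (38.9% against 20.04%) and Igfbp4 (18.5% against 37.4%).

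Read from the other side, the share of cycling cells was 2.03% (1.26 to 3.08) of recipient cells with Gzmk and 0.808% of those without. The log2 ratio of these shares was 1.33 (0.46 to 2.16). In the donor the shares were 1.47% and 1.15% (log2 0.36, -0.52 to 1.15). Cells with Igfbp4 were cycling in 0.525% against 1.37% without it in the recipient (log2 -1.38, -2.54 to -0.37), and in 0.897% against 1.26% in the donor (-0.50, -1.47 to 0.36). With Ly6c2 the shares were 1.07% against 1.04% in the recipient and 1.35% against 0.764% in the donor, and with Ccl5 1.26% against 0.777% and 1.10% against 1.48%. The Gzmk and Igfbp4 ratios had the same sign in both libraries, but their donor intervals included 0, and whether the libraries differ in them was not tested.

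**Figure D3:**
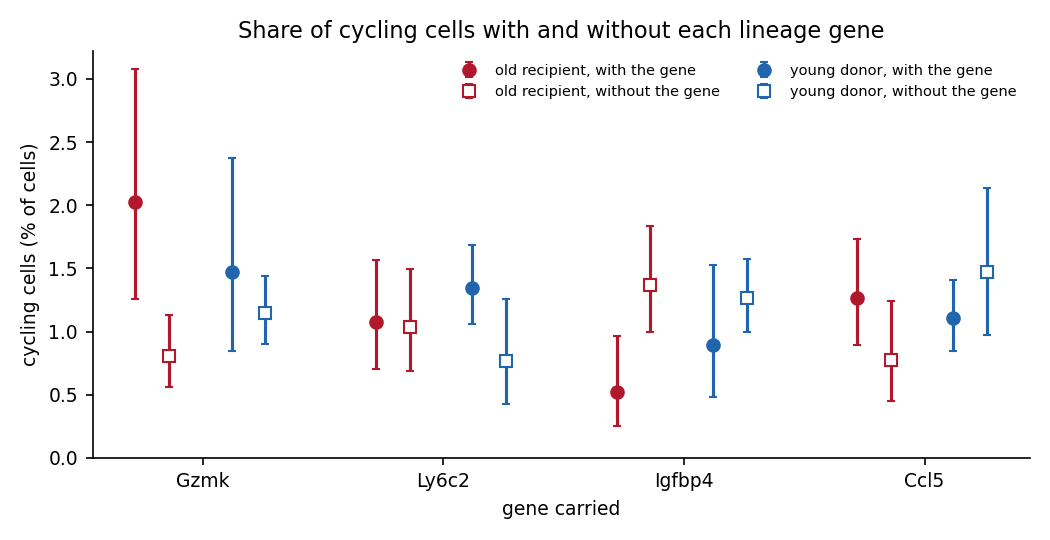
Share of cycling cells among cells with (filled circles) and without (open squares) each lineage gene after thinning to 3500 UMIs, in the old recipient (red) and young donor (blue), with exact 95% binomial intervals. The recipient cells with Gzmk have the highest share, 2.03%, and those with Igfbp4 the lowest, 0.525%.

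Split by the 4 genes together after thinning, cycling cells were spread over all of these states. In the recipient 21 members carried Gzmk, 10 carried Igfbp4 without Gzmk, 13 carried Ly6c2 and Ccl5 without either (24.1% against 23.8% of other cells), and 2 carried none. In the donor the numbers were 16, 13, 41 (45.6% against 52.98%) and 3. No thinned member had UMIs of both Gzmk and Igfbp4, but at full depth 3 of 54 recipient and 1 of 92 donor members did. Cells with Ly6c2 but no Ccl5, Igfbp4 or Gzmk were 7 recipient members (13.0%, 5.37 to 24.9) and 5.73% of other cells, and 15 donor members (16.7%, 9.64 to 26.0) and 6.85% of other cells. Of all recipient cells of that pattern 2.36% were cycling (0.953 to 4.80), and of all such donor cells 2.86% (1.61 to 4.67).

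The members with Ly6c2 but no Ccl5, Igfbp4 or Gzmk carried Ccr7 and Dapl1 of the naive list and also Lgals1. These genes were picked from longer lists and read in few cells, so no cell state is named from them. Ccr7, a homing receptor of naive cells, had 290 CPM in the 7 recipient and 244 CPM in the 15 donor members, against 340 and 343 in other cells of the pattern. Dapl1, high in naive and stem-like CD8 cells, had 591 and 1294 CPM in members and 439 and 557 in other cells. Lgals1, a galectin of activated T cells, had 1065 and 1578 CPM in members against 276 and 424. Eomes was at 9.68 and 47.9 CPM in these members, against 348 and 202 in members with Gzmk, which the pattern leaves out by definition.

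Cycling cells with Gzmk were compared with cycling cells without it, at full depth (23 and 31 recipient cells, 18 and 74 donor cells). Eomes, a transcription factor of memory and exhausted cells, had 309 against 35.8 CPM in the recipient and 187 against 63.8 in the donor. Tigit, an inhibitory receptor, had 178 against 13.4 and 140 against 3.64 CPM. Tox, a factor of exhausted cells, had 160 against 26.8 and 109 against 8.20 CPM. Gzmb (granzyme B) had 417 against 4.47 and 230 against 6.38 CPM. Klrg1, a receptor of terminal effector cells, had 207 and 113 CPM with Gzmk and no UMI without it, at least 30.9-fold and 41.3-fold higher at a limit of 3 counts. Dapl1 had 64.1 against 411 and 85.6 against 648 CPM, and Ly6c2 224 against 1165 and 755 against 1839. These genes were named after their values were seen. Outside the cycle each of them went the same way in cells with against without Gzmk, so the pattern was not particular to cycling cells. There Tigit had 191 against 3.22 CPM in the recipient and 143 against 4.69 in the donor, and Dapl1 60.7 against 284 and 84.7 against 326. Of the 13 genes of the age-associated list besides Gzmk, 8 had intervals above 0 in each library in cycling cells. Cxcr6 alone had one below 0, in the recipient, at 8.74 against 46.9 CPM (27.2 against 43.7 in the donor). No such count over all genes is given here, and the cells were split by Gzmk of that list. Whether 8 of 13 is many was therefore not tested.

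Cycling cells with Gzmk also differed from Gzmk carriers outside the cycle (1365 recipient and 1513 donor cells). Their median depths were 14421 UMIs against 4639 for the recipient and 13876 against 4695 for the donor. Gzmb had 417 against 107 CPM in the recipient (log2 1.96, 1.69 to 2.22) and 230 against 75.1 in the donor (1.61, 1.20 to 2.00). After thinning it was found in 14 of 23 recipient cycling carriers (60.9%, 38.5 to 80.3) against 19.2%, and in 8 of 18 in the donor (44.4%, 21.5 to 69.2) against 14.1%. Klrg1 had 207 against 69.0 and 113 against 45.5 CPM. Lgals3, a galectin induced on activation, had 396 against 70.5 and 253 against 54.2 CPM, and Lgals1 2629 against 879 and 3626 against 963. Anxa2, a membrane-binding annexin, had 982 against 345 and 1315 against 335 CPM.

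Genes of the age-associated list were split between these cells. Of the 13 besides Gzmk, Eomes and Havcr2 had intervals above 0 in the recipient, 5 had intervals below 0 (Ccl3, Ccl4, Penk, Nr4a2 and Cxcr6), and 6 had intervals that included 0. In the donor none lay above 0 and 4 lay below (Tox, Ccl3, Cd160 and Cxcr6). The share of all genes with such intervals is not given here, so whether these counts are large was not tested. Ccl4, a chemokine, had 52.5 against 519 CPM in the recipient and 160 against 204 in the donor. Cxcr6, a chemokine receptor of tissue T cells, had 8.74 against 58.8 and 27.2 against 64.9 CPM, on 3 and 7 UMIs in cycling carriers. Tigit had 178 against 191 and 140 against 143 CPM, Gzmk 1125 against 1007 and 1043 against 814, and Tox 160 against 181 and 109 against 174. Ccl5 had 10679 against 29807 CPM in the recipient and 9407 against 24773 in the donor, and 22 of 23 and 18 of 18 cycling carriers still had it after thinning. Il7r, the receptor of the survival cytokine IL-7, had 90.4 against 320 and 136 against 382 CPM. Tcf7, a factor of naive and stem-like cells, had 58.3 against 189 and 117 against 205 CPM.

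**Figure D4:**
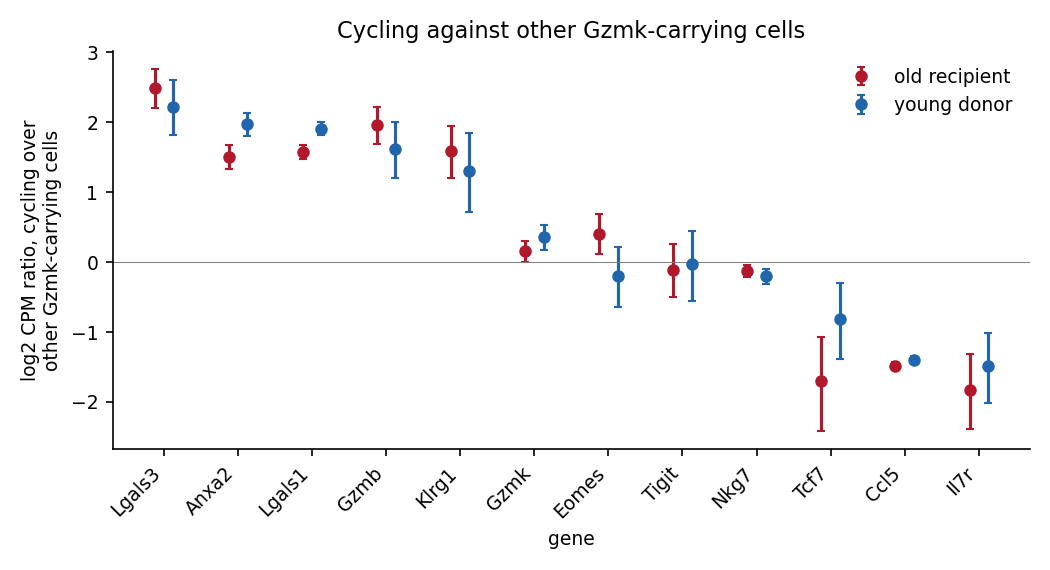
Log2 CPM ratio of cycling over other cells among Gzmk-carrying cells for 12 genes, in the old recipient (red) and young donor (blue), with exact 95% counting intervals for 2 sums. Lgals3, Anxa2, Lgals1, Gzmb and Klrg1 lie above 1 in both libraries, and Ccl5 and Il7r lie below -1. Gzmk, Eomes, Tigit and Nkg7 lie between -1 and 1, with both Gzmk intervals above 0.

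Over all members, which include these Gzmk carriers, the effector and cytotoxic list held the same genes. Of 12 measured, Gzma, Gzmb, Klrg1, S100a4, Lgals1, Lgals3 and Anxa2 were at least 2-fold higher in cycling cells of both libraries, with list medians of 1.86 and 1.46. Of these 12, 2 averaged under 20 CPM in other cells and so were measured through the cycling cells, which fixes their direction. Of the other 10, 5 were at least 2-fold higher, and 7 of the 19 listed genes were not measured. Gzma held 70.7% of its recipient and 48.9% of its donor member UMIs in 1 cell each, so its sums (220 and 66.4 CPM) describe few cells. Anxa2 had 609 against 123 CPM in the recipient and 497 against 111 in the donor. Prf1 (perforin) had 60.7 against 56.5 and 35.4 against 68.1 CPM. Of 18 memory, 14 interferon, 12 homing, 9 Gzmk age-associated and 6 p53 target genes measured, none passed 2-fold in both libraries in either direction on the CPM scale. Counts per list with TMM totals were not computed.

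Cycling cells of the 2 libraries were compared with each other. Of 5020 genes measured in members, 95 (1.89%) were at least 2-fold higher in the recipient and 40 (0.797%) at least 2-fold higher in the donor, around a median of 0.08. Among the 10 highest in the recipient, Lag3, an inhibitory receptor, had 55.7 against 11.1 CPM (log2 2.33, 1.46 to 3.28). Gzmb had 183 against 48.7 CPM (1.91, 1.48 to 2.36), and Klrg1 89.8 against 21.4 (2.07, 1.43 to 2.75). Tox had 84.8 against 27.3 CPM (1.63, 1.03 to 2.25) and Casp1, an inflammatory protease, 62.0 against 16.2. Other cells had 60.1 against 43.0 CPM of Tox. The same contrast among other cells gave 28.6 against 13.0 CPM for Lag3, 28.2 against 13.5 for Gzmb and 16.2 against 7.03 for Klrg1. Of 10 measured Gzmk age-associated genes 5 were at least 2-fold higher in recipient members, beside the larger share of Gzmk carriers there.

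Among the 10 highest in donor members, Ctse (cathepsin E) had 76.0 against 21.5 CPM and Fcgrt, the neonatal Fc receptor, 59.0 against 17.7. Gzmm (granzyme M) had 125 against 45.5 CPM. Ms4a4c had 192 against 79.7 CPM, and Chd8, a chromatin remodeller, 42.1 against 16.4. Zbtb11, Gosr1, Fam169b, G0s2 and Josd2 completed the 10 at 29.5 to 87.1 CPM in donor members. Ctse and Gzmm had the same direction in other cells, at 82.7 against 18.1 and 99.3 against 35.8 CPM.

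Histone messages were higher in recipient than in donor cycling cells. Replication-dependent histones are made in S phase, and most of their messages lack a poly(A) tail. All 22 measured were at least 2-fold higher in cycling than in other cells of both libraries, with medians of 5.61 and 4.74. Here 19 of the 22 were measured through the cycling cells, and 14 of the 36 listed genes were not measured. Hist1h2ap had 7377 CPM in recipient and 3154 CPM in donor members, against 45.3 and 31.8 in other cells. Of 30 histone genes measured in members, 16 were at least 2-fold higher in the recipient and none in the donor, with a median of 1.04 against 0.22 in other cells. Hist2h2bb and Hist1h4d, among the 10 highest, had 62.1% and 58.5% of their recipient UMIs in 1 cell. Hist1h2af and Hist1h2ak, also among the 10, had at most 29.5% in 1 cell. Copies of these genes are near identical, so counts of single histone genes are uncertain and their sum over the list is given too, at 10454 against 4799 CPM.

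Cycling cells differed in their shares of S-phase and G2/M transcripts. Of the 9 rule genes 7 act in G2 or mitosis, so cells rich in S-phase transcripts alone could miss the rule: other cells reached 0.759% of UMIs in S-phase genes in the recipient and 1.08% in the donor. The lists also differ in size, with 36 and 47 genes, so an S-phase share above the G2/M share is a description and not a phase call. S-phase genes took a median 0.588% of a recipient member's UMIs (0.00760 to 1.21) and 0.344% of a donor member's (0.00991 to 1.27). G2/M genes took 0.826% (0.0848 to 3.16) and 0.743% (0.0689 to 2.42). The S-phase share exceeded the G2/M share in 19 of 54 recipient members (35.2%, 22.7 to 49.4) and 25 of 92 donor members (27.2%, 18.4 to 37.4). Members fell into cells rich and cells poor in S-phase transcripts, with 1 recipient and 9 donor cells from 0.2% up to 0.4%. At 0.4%, a limit chosen after the values were seen, 36 of 54 recipient members (66.7%, 52.5 to 78.9) and 43 of 92 donor members (46.7%, 36.3 to 57.4) lay at or above it.

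Histone messages took a median 1.42% of UMIs in the 36 recipient cells rich in S-phase transcripts (0 to 3.99) and 0.585% in the 43 donor cells (0 to 1.67). In the cells poor in them the medians were 0.0446% and 0.0418%. The library with the higher histone median among S-rich cells was again the recipient. Gzmk was carried by 17 of the 36 recipient cells at or above the limit (47.2%) and 6 of 18 below it (33.3%). In the donor the numbers were 5 of 43 (11.6%) and 13 of 49 (26.5%), the opposite order.

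**Figure D5:**
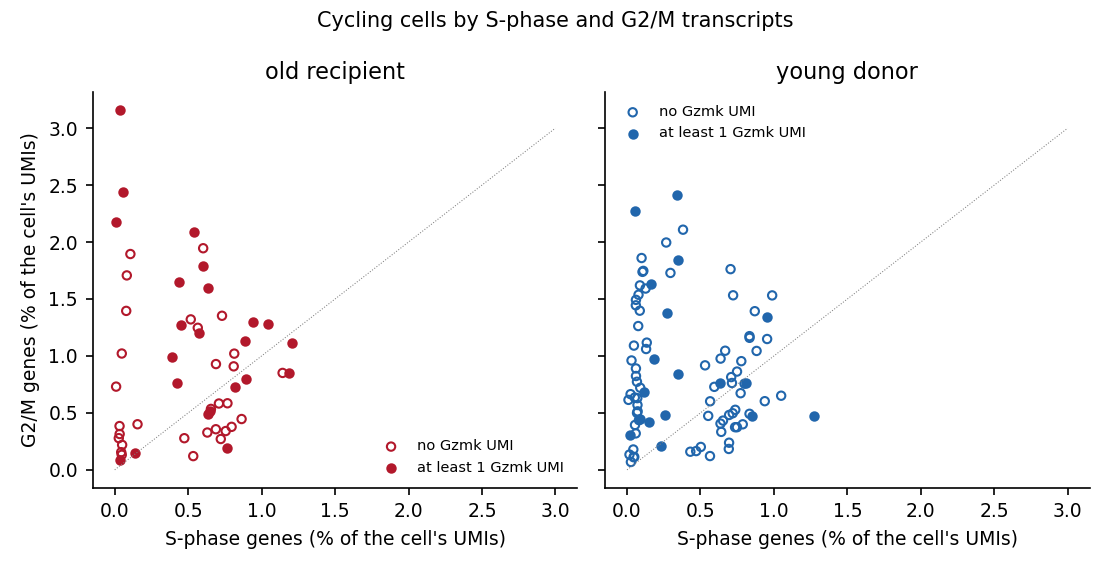
Each point is a cycling cell of the old recipient (left, red) or young donor (right, blue), by the percent of its UMIs in S-phase genes (horizontal axis) and in G2/M genes (vertical axis), filled where it has a Gzmk UMI, with a dotted line of equal shares. Cells gather below 0.2% and above 0.4% of S-phase UMIs, and 36 of 54 recipient and 43 of 92 donor cells lie at or above 0.4%.

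The cycling cells used many receptor segments. By the most abundant Trbv segment, 53 recipient members spread over 20 segments and 91 donor members over 19. Trbv1 led in 7 recipient members (13.2%, 5.48 to 25.3) and 6.05% of other recipient cells. Trbv12-1 led in 15 donor members (16.5%, 9.53 to 25.7) and 10.6% of other donor cells. The 23 recipient members with Gzmk spread over 12 segments. Of the 18 donor members with Gzmk, which spread over 7 segments, 8 had Trbv12-1. The Trbv12-1 share of donor Gzmk carriers outside the cycle is not given here, so whether cycling carriers differ from them was not tested. A shared segment is not a shared clone, and receptor repertoire libraries were not analysed here.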

How the data were processed

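Values are deposited raw UMI counts per gene and barcode, not normalized by the authors. The submitters' processing notes name mm10, Seurat and Cell Ranger. The software version in the matrix header is 3.0.2, and the annotation release is not given in the sources used here. The recipient library held 6174 barcodes and 41504941 UMIs, and the donor library 8588 and 65006187. The gene and mitochondrial limits left out 555 and 587 barcodes.

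The members, gene lists and limits were chosen with earlier results of these data known. UMIs were summed over cells and divided by their total (CPM), so 790445 and 1354948 UMIs stand behind the cycling cells. Intervals are exact Poisson, binomial or conditional for 2 sums at 95%, difference intervals combine 2 binomial ones, and all cover counting error only, not spread between mice or cells. For shares, 3500 UMIs were drawn per cell, which left out 0 and 2 cycling and 500 and 461 other cells. A fold against 0 UMIs uses a limit of 3 counts. Fitted tests were not possible with 1 library per group. Always named were the 9 rule and 4 lineage genes; then the 12 highest and 12 lowest by the smaller of both libraries' ratios, the 10 highest and 10 lowest between libraries with at least 50 UMIs, and up to 4 genes per list by member UMIs, without receptor, ribosomal, mitochondrial and unnamed genes. Other genes were named from the lists after their values were seen. Doublets were scored against 2 artificial doublets per cell over 1500 genes. Genes were placed with GENCODE M21 (30934 of 31053 features). Python 3.11.15, scipy 1.17.1, scikit-learn 1.9.0 and edgeR 4.0.16 (TMM factors only) were used, and the ratio code was tested on simulated data. Alternatives changed the rule, the cell filters, doublets, scaling, minimum level and thinning, and another 3 were chosen after seeing the data. Some genes of the lists are not reported here.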

Additional observations from a re-analysis of the deposited data

Results flagged for a closer look

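Of 118 named genes, 3 had ratios of cycling over other cells that went opposite ways in the libraries, with both counting intervals away from 0. Tox had a log2 ratio of 0.50 in the recipient and -0.65 in the donor, Gosr1 -0.93 and 0.73, and Nkg7 0.35 and -0.10. The difference between the libraries was not tested, since each has 1 library. Gosr1 rests on 10 UMIs in 5 recipient members. When 2 rule genes sufficed for membership, the donor ratios were 0.05 for Tox and 0.04 for Nkg7, so these no longer went opposite ways.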

How the results depend on the processing

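With 1 library per group, counting is the only error that could be estimated, and a few deep cells carry much of some sums. Of 232 recomputed main values 184 moved by no more than their interval, 46 moved further and 2 changed direction, and of 4096 other values 444 moved further and 5 changed direction. The cause of a move was not tested. No paired analysis was possible because the labels give 1 library per group and no replicate numbers. Limits of 1000 genes or 5% mitochondrial UMIs per cell moved none of the 422 values recomputed under each.

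With 2 rule genes sufficient, members were 1.46% of recipient and 1.67% of donor cells, 7 genes were lower in members of both libraries and 25 higher in donor members. The log2 ratios of members over other cells were then 1.58 for recipient Gzmk, 0.079 for donor Ly6c2, -0.56 for donor Ccl5 and, with the direction changed, 0.15 for recipient Ccl5, 0.048 for donor Tox, 0.045 for donor Nkg7 and -0.00061 for recipient Itgb7. With 4 rule genes required, donor Ccl5 was -1.30.

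With the rule read after thinning, 0.915% of donor cells were members and 173 genes were higher in recipient members. Gzmk was 1.99 in the recipient and 1.15 in the donor, donor Ly6c2 0.083, recipient Igfbp4 -2.10, and Ccl5 -0.082 and -1.35.

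With TMM factors 40 genes were lower in members of both libraries. Gzmk was 1.15 and 0.65, Ly6c2 -0.31 and 0.011, Ccl5 -0.79 and -1.36, and recipient Itgb7 changed direction to -0.049. With totals that left out ribosomal, mitochondrial, receptor segment and cell cycle genes 43 genes were lower. Gzmk was 1.14 and 0.61, Ly6c2 -0.32 and, with the direction changed, -0.025, Ccl5 -0.80 and -1.40, and recipient Itgb7 -0.056.

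Without a minimum level, 1034 genes were higher and 2787 lower in members of both libraries, 1434 higher in recipient and 1739 in donor members, since genes with few UMIs enter. At a mean of at least 50 CPM these counts were 190, 8, 29 and 10, since fewer genes are measured. With the highest doublet scores removed, Ccl5 was -0.48 and -1.12.

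Chosen after seeing the data were the mean of per-cell CPM, under which Gzmk was 0.71 and 0.17, Ly6c2 0.12 and 0.39, recipient Igfbp4 -1.22 and recipient Ccl5 -0.89, and leaving out shared barcodes, under which recipient Ccl5 was -0.45. Leaving out genes with over 50% of their member UMIs in 1 cell, also chosen then, moved none of the 3 counts it touches.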
